A study of Orestias ascotanensis with 42 samples.

Results

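The genes described here are the 100 genes of Orestias ascotanensis whose level varied between individual fish most alike in gills, skin and muscle. They were selected on the correlation between tissues over the fish, in a table of 21024 genes. A gene entered the ranking with a mean of at least 2 CPM (read counts scaled to the library total) in each tissue and with its highest tissue mean less than 8 times its lowest, which left 11560 genes. For each of them the mean of its tissue and season was subtracted from log2(CPM + 0.5), and Pearson's r of these deviations was taken over 14 fish for gills with skin, gills with muscle and skin with muscle. Genes were ranked by the smallest of the 3 correlations, and the first 100 whose deviations had a standard deviation (SD) of at least 0.3 in every tissue are the members. Only 1041 of the 11560 genes met the SD limit, and 363 genes with correlations as high as those of the members fell short of it.

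Orestias ascotanensis is a small killifish that lives in springs of the Ascotán salt pan at 3740 m. RNA was measured in 42 poly-A libraries from 14 wild fish netted there, 7 in July 2019, the southern winter, and 7 in January 2020, the southern summer. By the labels, every fish gave 1 library of gills, 1 of skin and 1 of muscle, so there were 6 groups of 7 libraries. Each season was 1 collection in 1 year, so season, year and collection cannot be told apart. The labels used here give no age, sex or size. Fish are called winter 1 to 7 and summer 1 to 7, after the individual numbers in the labels, and the same number in the other season is another fish. Every correlation between tissues and every value per fish rests on these numbers marking the same fish in each tissue, which was not tested. The files do not pair the gene identifiers with names, so genes are given by identifier only, and neither cell type markers nor tissue markers could be checked.

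Gills exchange gases and ions with the water, skin is the outer barrier, and the trunk muscle moves the body, so most genes differ in level between these tissues. A gene whose level differs between individuals in the same direction in every tissue is of interest because it may mark the animal and not the organ. In animals generally, such genes include those with inherited differences in regulation and those that follow a state of the whole body, such as stress, feeding or the daily cycle. That is background, and which of these applies to any member was not tested. In bulk tissue, fewer cells of a type and less RNA per cell cannot be told apart.

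Total counts per library ran from 6074371 in muscle of summer 4 to 154396513 in muscle of summer 5, and the median count of a member in muscle of summer 4 was 69. Of the 4200 values of the members, 5 were 0, in 4 members. In 4 libraries (gills of winter 7, muscle of winter 4, gills of summer 1 and skin of summer 7) the season tag differs from the title, which was followed. Skin of summer 3, skin of summer 4 and muscle of summer 4 stood apart from the other libraries of their group: with all 11560 genes, their loadings on the leading component of their group were -0.54, -0.65 and -0.92, and every other skin or muscle library of summer loaded positively. In 12 of the 126 pairs of libraries of the same group, the log2 count ratio varied less (median absolute deviation from 0.0746 to 0.144) than in any other pair (0.160 to 1.68). These near-identical libraries were gills of winter 2 with winter 7 and of winter 3 with winter 6, gills of summer 4 with summer 7, skin of winter 2, 6 and 7, and muscle of summer 3, 5, 6 and 7. Whether they come from separate fish was not tested. They are counted as separate, as the labels number them, unless stated otherwise.

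The smallest correlation of a member ranged from 0.385 to 0.667 with a median of 0.469, against a median of -0.10 over all 11560 genes. These values chose the members and carry no test. The last members inside the list were OAV3G000011040 at 0.386 and OAV3G000011613 at 0.385, and the first genes outside it were OAV3G000018932 at 0.384 and OAV3G000013891 at 0.383, so the limit falls in a continuous series. The members were expressed at moderate levels, with a median of their mean level of 10.6 CPM in gills, 17.5 CPM in skin and 15.9 CPM in muscle. Levels in CPM are not per length and are compared here only within a gene. Of the members, 15 were highest in gills, 41 in skin and 44 in muscle, while 40.3%, 24.5% and 35.2% of the 11560 genes were. A total of 32 members had tissue means within 2-fold of each other.

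The correlations that chose the members were higher among the winter fish than among the summer fish. They are part of what the rule used, so their height is given without a test. Within the 7 winter fish, the median r over the members was 0.841 for the gill-skin pair, 0.751 for the gill-muscle pair and 0.742 for the skin-muscle pair. Within the 7 summer fish, the same medians were 0.222, 0.146 and 0.335. Over all 11560 genes the medians were 0.477, 0.204 and 0.255 in winter and 0.0423, 0.0516 and 0.261 in summer. All 3 correlations were above 0.5 for 82 members in winter and for 3 members in summer, against 15.4% and 0.761% of the 11560 genes. In summer, a correlation below 0 was found for 34 members in the gill-skin pair, 40 in the gill-muscle pair and 28 in the skin-muscle pair. For summer, tissues that vary less alike and numbers that do not mark the same fish in every tissue cannot be told apart from these correlations.

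**Figure D1:**
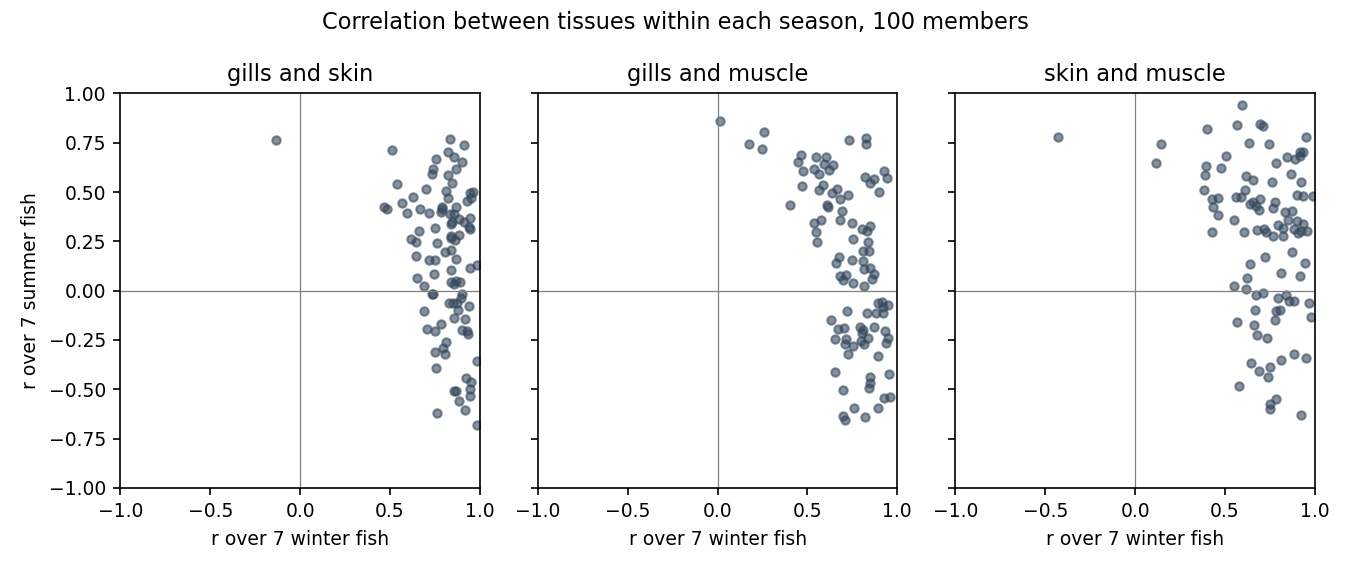
Pearson's r between tissues over the 7 winter fish (x axis) and over the 7 summer fish (y axis), 1 point per member, 1 panel per tissue pair. Most points lie at the right, near the winter medians of 0.841, 0.751 and 0.742, and spread from below -0.6 to above 0.7 along the summer axis.

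For the same members, not chosen again, a gap between the seasons remained without the libraries in doubt. These correlations are part of what the rule used, so this is a description and no separate support. Without winter 4 and 7, which hold a library with a differing tag, the winter medians were 0.871, 0.862 and 0.796. Without summer 1 and 7, the summer medians were 0.435, 0.359 and 0.367. Without winter 6 and 7, which leaves 1 library of each near-identical set of winter, the winter medians were 0.893, 0.796 and 0.795, and without winter 1 they were 0.791, 0.656 and 0.659. Without summer 3 and 4, which hold the libraries that stood apart, the summer medians were -0.23, 0.200 and -0.03. Without summer 5, 6 and 7, they were 0.276, 0.214 and 0.402 over 4 fish. Over all 11560 genes, the winter medians were 0.559, 0.293 and 0.312 without winter 4 and 7. They were 0.558, 0.230 and 0.348 without winter 6 and 7, and 0.419, 0.0614 and 0.202 without winter 1. The summer medians of all genes were 0.0989, 0.0554 and 0.325 without summer 1 and 7. They were 0.261, 0.0652 and 0.405 without summer 5, 6 and 7. Without summer 3 and 4 they were -0.19, 0.174 and 0.0431, close to those of the members. The mean deviation of a fish over its 3 tissues is called its fish value below. Over the members its median SD was 0.547 on the log2 scale in winter and 0.306 in summer. A mean over tissues spreads less where the tissues disagree, so this gap partly restates the correlations. Within gills, the members' median SD was 0.455 in winter and 0.322 in summer, and within muscle 0.767 and 0.3497. Within skin it was 0.574 in winter and 0.587 in summer, so winter was not the wider there. For 86 members the winter SD of the fish value was the larger, as it was for 35.0% of the 11560 genes.

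**Figure D2:**
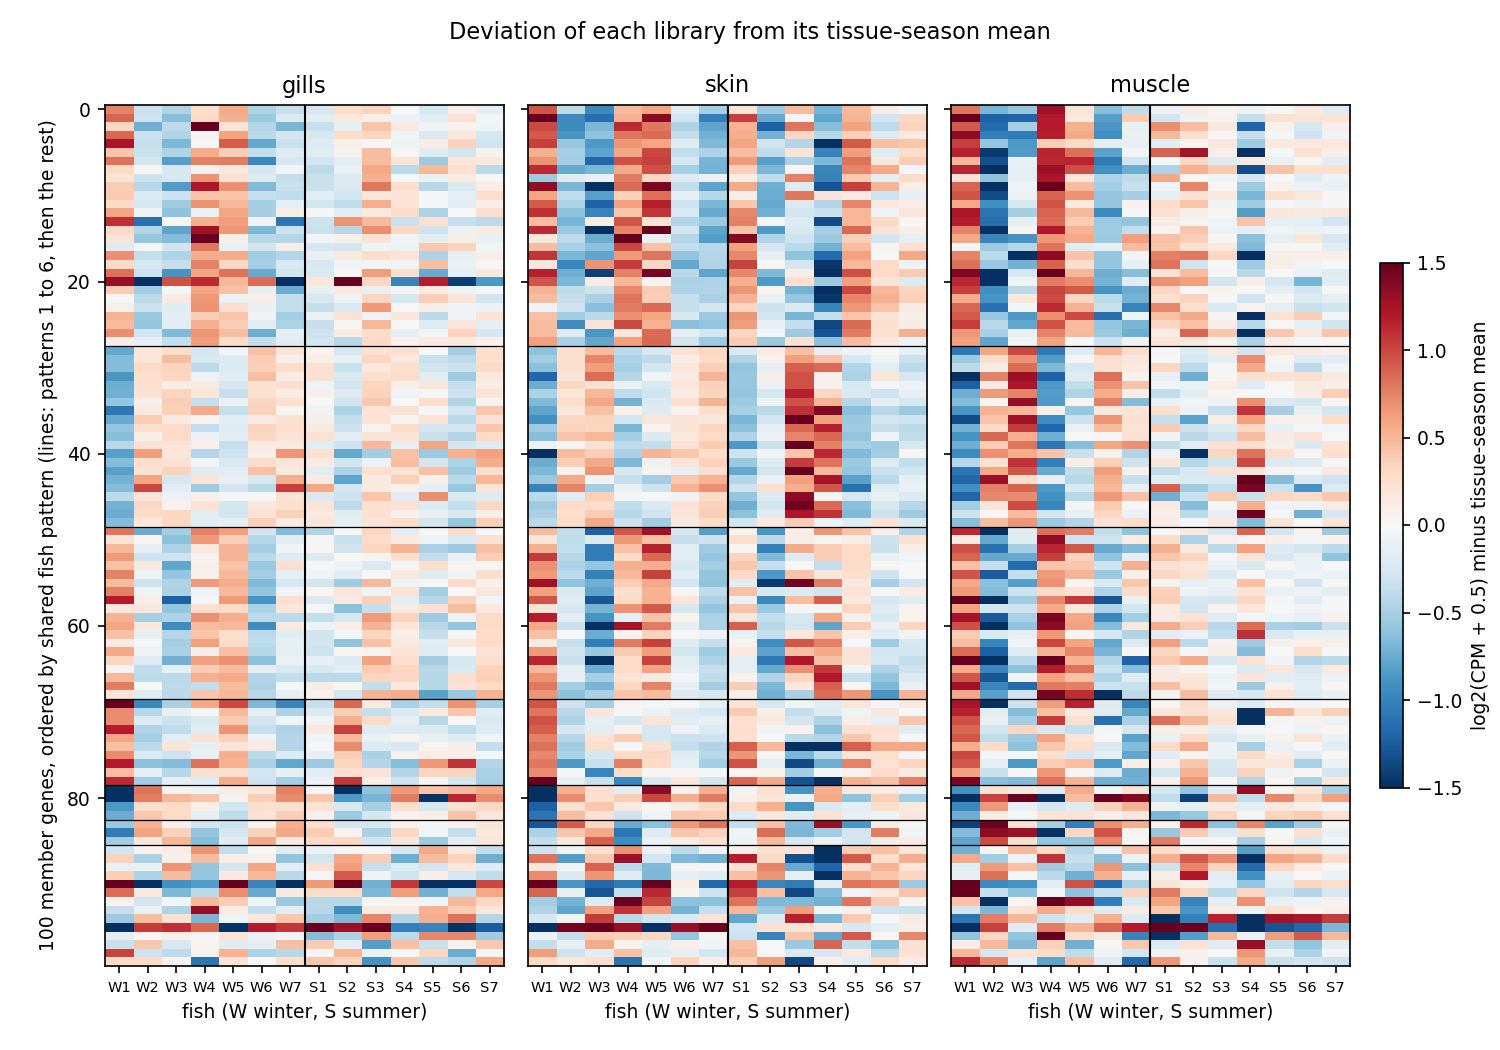
Deviation of log2(CPM + 0.5) from the tissue-season mean for the 100 members (rows) in the 14 fish (columns) of gills, skin and muscle, red above and blue below the mean. Rows follow the fish patterns described in the text. In winter, fish 1, 4 and 5 mostly share colours in all panels for patterns 1 to 3, opposite to fish 2, 3, 6 and 7. Other rows depart from this, such as those of pattern 5, with a median of -1.40 in winter 1 and 0.21 in winter 5. In summer the panels differ from each other for most rows and fish, but not all. Of the 21 members of pattern 2, 15 were above the mean in all 3 tissues in summer 4 and 16 below it in summer 2.

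A winter fish deviated in the same direction in all 3 tissues for 70 to 92 members, against 33.4% to 55.0% of the 11560 genes. A summer fish did so for 14 to 50 members, against 19.5% to 47.9%. These deviations gave the correlations that chose the members, so the counts are a description and carry no test. Winter 1 was above the mean in every tissue for 59 members and below it for 33. Winter 4 was above for 54 and below for 22, and winter 5 was above for 54 and below for 20. The other winter fish had the reverse balance: 29 above and 54 below in winter 2, 26 and 50 in winter 3, 25 and 53 in winter 6, and 22 and 48 in winter 7.

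The same measure was then taken in fish that the choice had not used. Each fish was left out in turn, 100 genes were chosen by the same rule on the other 13 fish, and the left-out fish was compared with the mean of the other fish of its group. In winter fish, from fish 1 to fish 7, 77%, 77%, 60%, 53%, 62%, 71% and 58% of the chosen genes deviated in the same direction in all 3 tissues. The shares over all genes past the level limits were 55.0%, 42.1%, 41.4%, 37.6%, 39.3%, 33.3% and 36.2%, so the chosen genes were above them in 7 of 7 winter fish. In summer fish the shares were 15%, 29%, 24%, 26%, 19%, 34% and 13%, against 26.5%, 47.9%, 30.4%, 26.0%, 23.5%, 19.5% and 19.8%. The chosen genes were above the background in 1 of 7 summer fish, summer 6. Left-out fish share their near-identical partners with the 13 fish used, so these shares are not fully independent of the choice. The chosen genes also had to pass the SD limit, and the background genes did not. With all fish, only 1041 of the 11560 genes passed it. The other winter fish, which show the split of all genes described below, still took part in the choice. Whether the winter excess goes beyond that of genes of equal spread was not tested.

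**Figure D3:**
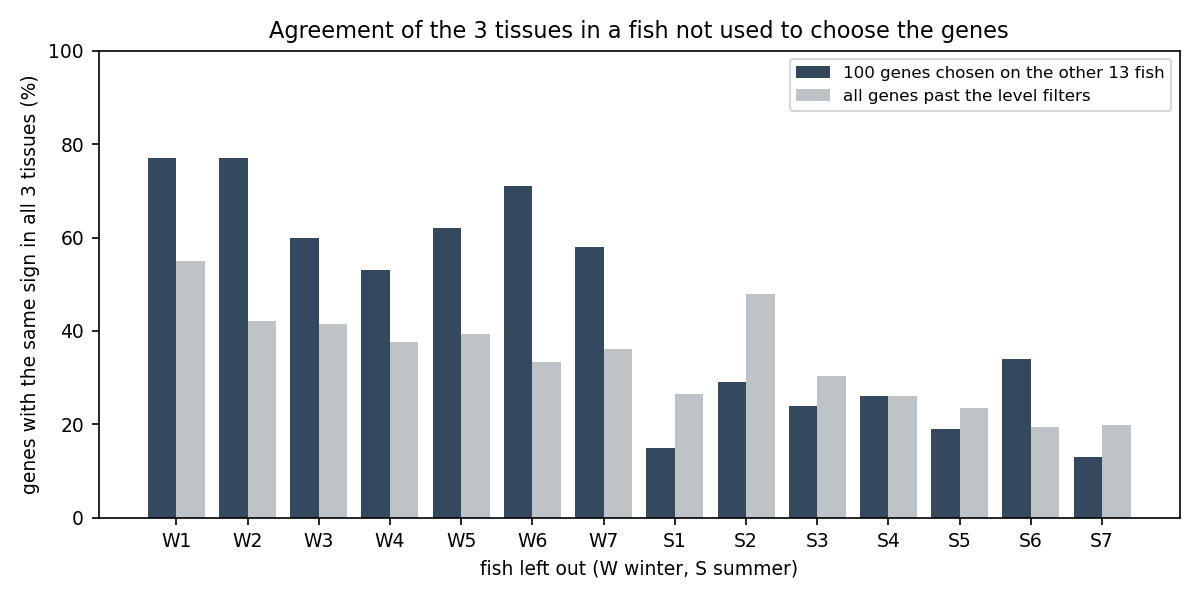
Share of genes (y axis, %) that deviated in the same direction in gills, skin and muscle of a fish (x axis) left out when the 100 genes were chosen (dark bars), beside all genes past the level limits (grey bars). The dark bar is higher in all 7 winter fish, and in summer only in fish 6.

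The libraries most alike over the chosen genes were often not those of the same fish. Over the genes chosen without a fish, each of its libraries was correlated with the libraries of the other tissues in all 14 fish, which gives 42 comparisons per season. Each pair of libraries of a fish is counted from both sides, so the 42 are not separate. Only the tissue mean over all fish was subtracted here, so differences between seasons remained. The own fish is 1 of 14 candidates in each comparison, and the same count was not taken over all ranked genes. In winter, the library of the same fish came first in 15 of 42, of which winter 1 gave 6 of 6. In summer it came first in 1 of 42. For winter 1, r between its own libraries was 0.811 for gills with skin, 0.818 for gills with muscle and 0.804 for skin with muscle. For winter 5, r was 0.750, 0.139 and -0.01, and its gills were closest to the skin and the muscle of winter 1.

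The members shared few fish patterns. Among the 4950 pairs of members, 41.5% had fish values correlated beyond 0.7 in either direction, 1288 positively and 764 negatively. The median absolute r between members was 0.835 in winter and 0.466 in summer. Neither value was taken over pairs of all ranked genes, so they do not show whether shared patterns are particular to the members. Average-linkage clustering of the fish values at r of 0.7 placed 86 members in 6 groups of at least 3 members. No members are neighbours in the table, and the closest identifiers differ by 4, so the groups are not runs of adjacent identifiers.

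Pattern 1, with 28 members, was high in winter 4, winter 1 and winter 5, with median fish values of 0.79, 0.69 and 0.59 on the log2 scale. It was low in winter 2, 3, 6 and 7, at -0.63, -0.54, -0.47 and -0.40. Its leading member, OAV3G000012340, ran in winter gills from fish 1 to fish 7 at 75.3, 35.7, 32.5, 54.4, 65.7, 32.2 and 35.2 CPM. In winter skin the same gene was at 59.0, 23.0, 15.5, 43.0, 46.3, 27.0 and 21.2 CPM, and in winter muscle at 21.9, 7.49, 8.11, 30.6, 14.3, 7.78 and 9.34 CPM. In each tissue winter 1, 4 and 5 held the 3 highest values. In summer it ranged from 40.7 to 61.9 CPM in gills, 19.1 to 44.3 CPM in skin and 16.7 to 21.1 CPM in muscle, and the muscle values of summer lay within those of winter. Pattern 1 members were mostly highest in muscle, in 18 of 28.

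Pattern 3, with 20 members, followed pattern 1 in winter but not in summer. Its median fish values were 0.69, 0.54 and 0.62 in winter 1, 4 and 5, and -0.52, -0.62, -0.40 and -0.23 in winter 2, 3, 6 and 7. The mean fish values of patterns 1 and 3 correlated at 0.977 over the winter fish and at -0.41 over the summer fish. The leading member, OAV3G000018109, was at 5.16, 1.43, 1.78, 4.98, 4.47, 2.16 and 1.56 CPM in winter gills from fish 1 to fish 7. In winter skin it ran from 1.35 CPM in fish 3 to 9.85 CPM in fish 5, and in winter muscle from 0.546 CPM in fish 2 to 6.31 CPM in fish 1. Members of this pattern were highest in skin in 13 of 20 and in gills in 0 of 20.

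Pattern 2, with 21 members, was the mirror image in winter. Its median fish values were -0.66, -0.39 and -0.18 in winter 1, 4 and 5, and 0.28, 0.52, 0.26 and 0.22 in winter 2, 3, 6 and 7. It correlated with pattern 1 at -0.93 in winter and at -0.59 in summer, where it was highest in summer 4 at 0.43 and in summer 3 at 0.35. Those are the fish with the libraries that stood apart. Its leading member, OAV3G000006272, was at 26.0, 83.1, 111, 26.0, 47.7, 77.9 and 66.5 CPM in winter muscle from fish 1 to fish 7. In winter gills it was at 7.09, 14.1, 15.1, 10.3, 12.1, 17.04 and 14.2 CPM, and in winter skin at 16.9, 30.9, 36.3, 19.7, 21.9, 30.3 and 32.4 CPM. In all 3 tissues winter 1, 4 and 5 held the 3 lowest values.

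Patterns 4 and 5 were most extreme in winter 1. Pattern 4 also mirrored pattern 2 in both seasons: their mean fish values correlated at -0.95 in winter and at -0.97 in summer. Over all 14 fish, the mean fish values of pattern 1 correlated at 0.829 with pattern 3 and at 0.816 with pattern 4. The patterns are therefore not sharply separate. Pattern 4, with 10 members, had a median fish value of 0.88 in winter 1 and of at most 0.28 in any other fish, and was led by OAV3G000011050. That gene was at 7.81 CPM in gills, 9.58 CPM in skin and 19.5 CPM in muscle of winter 1, where the medians of the 7 winter fish were 1.504, 4.65 and 6.92 CPM. Pattern 5, with 4 members, was at -1.40 in winter 1. It is led by OAV3G000002649, the member of highest rank, at 0.219, 0.108 and 2.04 CPM in gills, skin and muscle of winter 1 against winter medians of 2.26, 3.89 and 4.79 CPM. Pattern 6, with 3 members, was led by OAV3G000014369, the next by rank. In winter muscle OAV3G000014369 was at 30.7, 227, 95.6, 57.5, 39.8, 131 and 119 CPM from fish 1 to fish 7, so winter 1, 4 and 5 again held the lowest values. The other 14 members belonged to no group of at least 3.

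**Figure D4:**
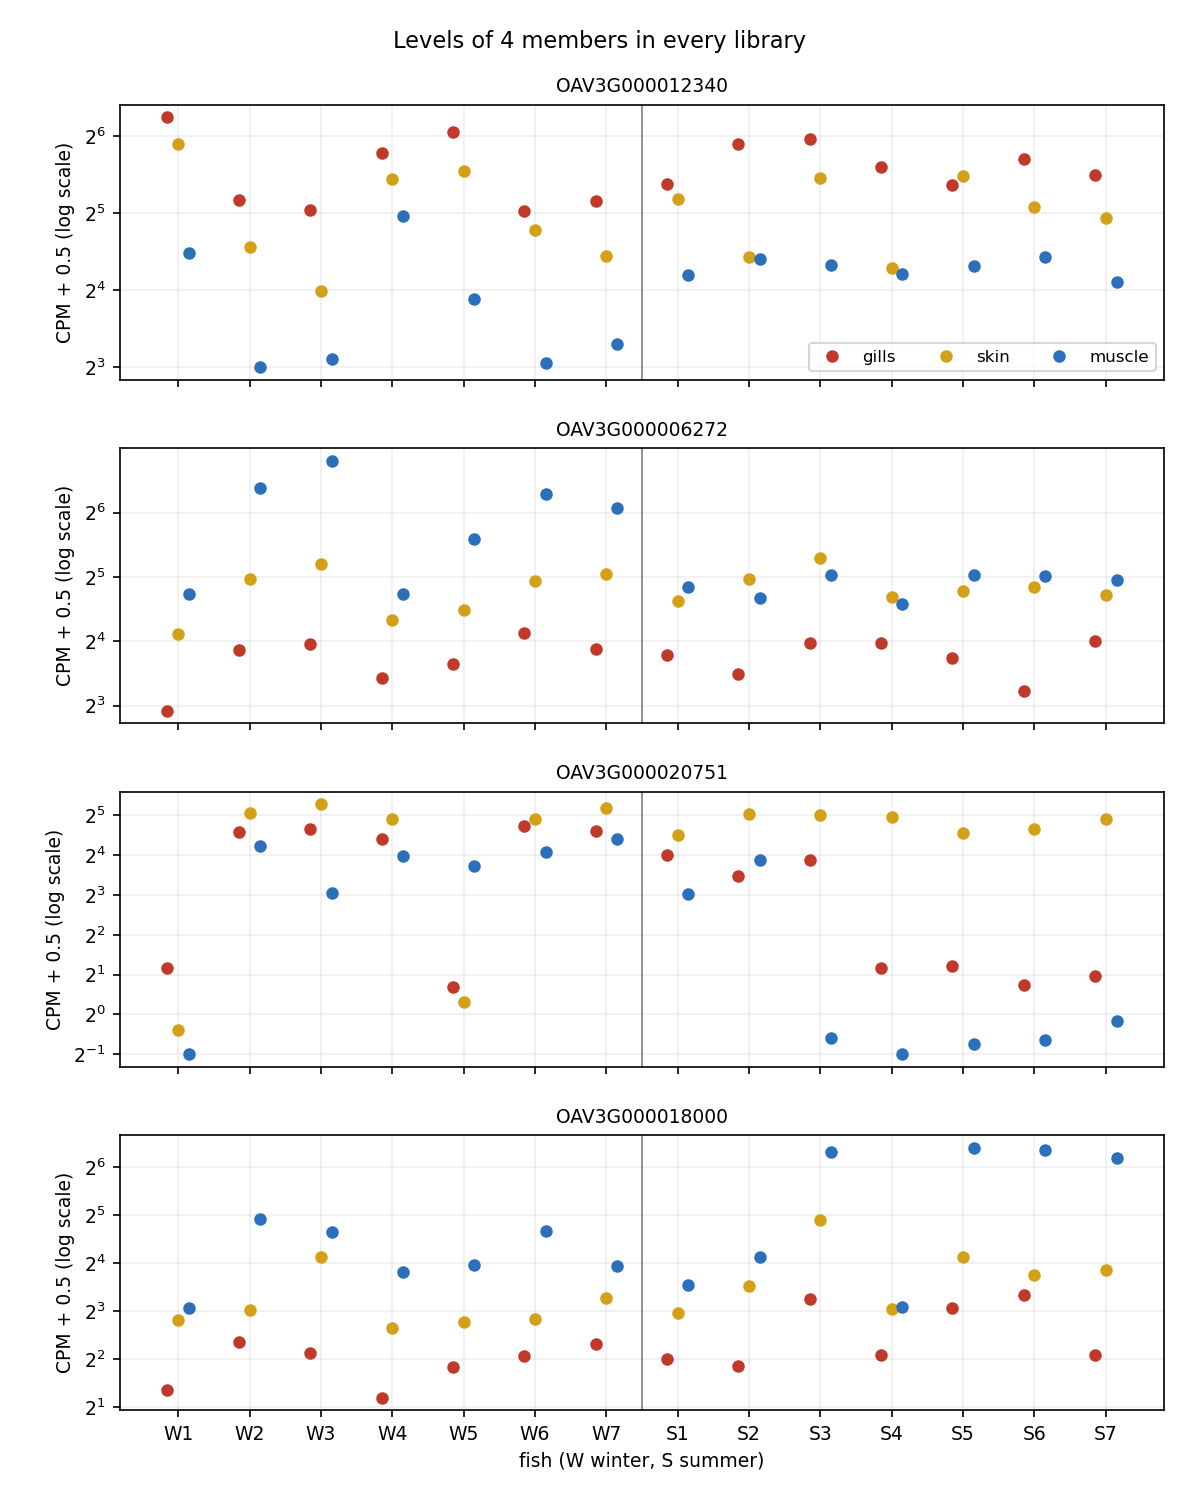
Level (CPM + 0.5, log scale, y axis) of 4 members in every library, by fish (x axis) and tissue (colour). OAV3G000012340 is high and OAV3G000006272 low in winter 1, 4 and 5. OAV3G000020751 switches between near 0 and over 7 CPM in libraries that are not the same in all tissues, and OAV3G000018000 varies most in summer muscle, from 7.98 to 84.2 CPM.

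A deviation of a fish of more than 2-fold from the tissue-season mean in every tissue was rare. A fish was counted as high or low for a gene where its deviation passed 1 on the log2 scale in all 3 tissues, which happened for 6 members and for 0.26% of the 11560 genes. The rule asked for a wide spread and for correlation between tissues, so the higher share among members follows from the choice. For the members, all such fish were winter fish. Over the 11560 genes most cases were in winter too, with 11 genes high in winter 4 and 8 high in winter 1. The summer cases over those genes were 1 high in summer 3 and 1 low in summer 4. Winter 1 was low for OAV3G000012667, at 0.438 CPM in gills, 0.0538 CPM in skin and 0 CPM in muscle, where the medians of the winter fish were 8.53, 9.68 and 11.8 CPM. Winter 4 had this gene at 8.53 CPM in gills and 8.50 CPM in skin, near the median, but at 0.567 CPM in muscle. Winter 1 was high for OAV3G000005404, at 44.2, 16.4 and 24.8 CPM in gills, skin and muscle, and for OAV3G000001783 and OAV3G000011040. Winter 4 was high for OAV3G000014474, at 29.1, 33.4 and 41.8 CPM.

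OAV3G000020751 had the widest range of fish values, 5.15 on the log2 scale, and came close to being on or off. Winter 1 was low in all tissues, at 1.72 CPM in gills, 0.256 CPM in skin and 0 CPM in muscle. Winter 5 was at 1.12 CPM in gills and 0.733 CPM in skin but at 12.8 CPM in muscle. The other winter libraries held 20.7 to 26.1 CPM in gills, 29.5 to 38.3 CPM in skin and 7.85 to 20.7 CPM in muscle. In summer skin every fish was between 22.4 and 32.2 CPM. In summer gills, however, fish 1, 2 and 3 were at 15.6, 10.7 and 14.2 CPM and the other four between 1.17 and 1.82 CPM. In summer muscle, fish 1 and 2 were at 7.59 and 14.1 CPM and the other five between 0 and 0.397 CPM. The low libraries were therefore not the same fish in every tissue: 4 summer fish were low in gills and muscle and high in skin, and summer 3 was high in gills and skin and low in muscle.

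The 3 members with all correlations above 0.5 in summer were OAV3G000018000, OAV3G000020594 and OAV3G000000837, named after their values were seen. OAV3G000018000 was at 78.8, 84.2, 81.9 and 73.0 CPM in muscle of summer 3, 5, 6 and 7, the near-identical libraries, and at 11.1, 16.9 and 7.98 CPM in summer 1, 2 and 4. In summer gills it was at 3.53, 3.11, 9.07, 3.73, 7.90, 9.66 and 3.77 CPM from fish 1 to fish 7, so fish 3, 5 and 6 were high and fish 7 was not. OAV3G000000837 was at 4.90, 5.25 and 5.26 CPM in gills of summer 3, 5 and 6 and at 1.72 to 2.15 CPM in the other four. In winter gills it lay between 1.55 and 2.10 CPM, and its winter correlations were 0.541, 0.177 and 0.117. OAV3G000020594 had correlations of 0.769, 0.593 and 0.845 in summer and 0.836, 0.565 and 0.693 in winter, which makes it the only member above 0.5 for all pairs in both seasons.

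The split of the winter fish was not particular to the members. The leading component of all 11560 genes, taken within a tissue and season, held 50.1% of the variance in winter gills, 55.3% in winter skin and 58.5% in winter muscle. In each of these tissues winter 1, 4 and 5 loaded positively and winter 2, 3, 6 and 7 negatively, and leaving the members out changed the shares only to 49.1%, 55.0% and 58.2%. The sign of each component was set so that fish 1 of its group loaded positively. Signs therefore show a split only within a tissue and season and are not compared between tissues. The loading of winter 4 in gills was small, at 0.09, against 0.69 for winter 1 and 0.40 for winter 5. In summer, fish 4 was far out in every tissue, at 0.51 in gills, -0.65 in skin and -0.92 in muscle, while the other fish far out differed: fish 7 and 5 in gills, at 0.54 and -0.48, and fish 3 in skin, at -0.54.

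Some properties of the libraries moved with the winter split and others did not, and their part in the members' values was not tested. In winter muscle, from fish 1 to fish 7, 7.98%, 9.90%, 11.1%, 6.74%, 7.94%, 13.5% and 13.03% of genes had no count, lowest in winter 4, 5 and 1. In winter gills the shares were 4.77%, 5.26%, 6.17%, 5.58%, 4.80%, 6.21% and 6.57%, with winter 4 above winter 2. In winter skin they were 4.90%, 6.74%, 6.22%, 6.35%, 7.63%, 6.48% and 7.10%, highest in winter 5. The 50 most abundant genes held 31.6%, 26.5%, 23.1%, 32.1%, 33.5%, 26.7% and 26.4% of counts in winter skin, highest in winter 1, 4 and 5. In winter muscle the same share was 61.8%, 63.9%, 64.7%, 61.2%, 58.1%, 67.2% and 71.1%, lowest in those fish. Genes at least 4 times higher in muscle than in gills and skin, 789 genes, held 23.0%, 18.6%, 15.1%, 26.9%, 26.7%, 19.1% and 18.3% of counts in winter skin. Of the members, 1 is among those 789 genes, 1 among the 169 genes so defined for skin and 0 among the 591 for gills. The rule left out genes below its level limit in any tissue or with tissue means far apart, which restricted these counts beforehand. No share over all ranked genes is given, so the counts do not show whether the members' values follow the muscle genes. In winter gills the muscle genes held 0.714% to 2.22% of counts, with fish 4 highest.

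The seasonal comparison asks whether the level of the members also differed between summer and winter. The mean of each tissue and season was removed before the choice, so the difference between seasons did not choose the members, but their SD of at least 0.3 enters the error of the test. In muscle, 10 members passed edgeR's quasi-likelihood test at an adjusted p under 0.05, 3 higher and 7 lower in summer. Over all 17181 genes tested, 2.36% were called higher and 4.04% lower, and unadjusted p was under 0.05 for 11 and 12 members, against 10.3% and 13.9% of all genes. The members' median difference was 0.19 on the log2 scale, against -0.01 for all genes.

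OAV3G000014369, which leads pattern 6, was at 30.7, 95.6 and 227 CPM (lowest, median and highest) in winter muscle and at 13.02, 23.7 and 50.9 CPM in summer muscle. The groups overlapped, and 7 of 7 summer libraries lay below the winter median. It fell by 1.92 ± 0.42 on the log2 scale (SE, n = 7 and 7, edgeR adjusted p = 0.0168). OAV3G000005607 was at 9.13, 10.5 and 19.7 CPM in winter muscle and at 19.0, 23.0 and 26.2 CPM in summer muscle, where 7 of 7 libraries were above the winter median. It rose by 0.85 ± 0.19 (edgeR adjusted p = 0.0171). In winter muscle its highest values were in fish 1 and 4, at 19.7 and 19.3 CPM, which were within the summer range. OAV3G000002649 rose by 1.22 ± 0.33 (edgeR adjusted p = 0.0354), from a winter median of 4.79 CPM to a summer median of 8.19 CPM. Its call was lost in 6 of 14 runs that each left out 1 library, against 0 of 14 for OAV3G000014369 and for OAV3G000005607.

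OAV3G000006272 in muscle was at 26.0, 66.5 and 111 CPM in winter and at 23.4, 30.4 and 32.3 CPM in summer, and fell by 1.07 ± 0.28 (edgeR adjusted p = 0.0327). Its call was lost in 10 of the 14 runs that each left out 1 library. The 7 summer libraries lay below the winter median, near the values of winter 1 and 4, and their SD was 3.60 CPM against 31.5 CPM in winter. By pattern, 4 of 21 members of pattern 2 and 2 of 3 of pattern 6 were called lower in muscle. In pattern 5, 1 of 4 was called higher, and pattern 3 had 1 called each way. Over all genes tested in muscle, 4.04% were called lower and 2.36% higher. The difference was below 0 for 16 of 21 members of pattern 2 and 3 of 3 of pattern 6. None of the 28 members of pattern 1 was called, but 23 had a positive difference, against 49.4% of all genes. Members of a pattern vary together by fish, so calls and signs within a pattern are not separate results.

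**Figure D5:**
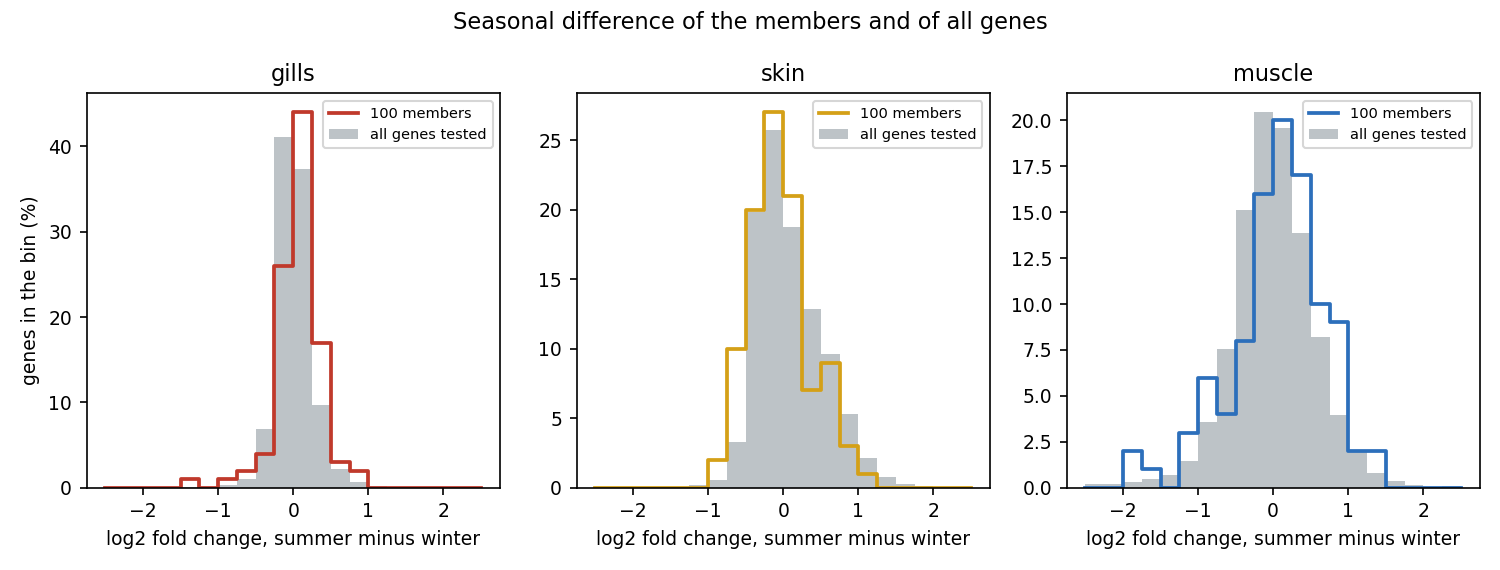
Distribution of the difference between summer and winter (x axis, log2 fold change, edgeR) in gills, skin and muscle for the 100 members (lines) and for all genes tested (grey), as a share of genes per bin (y axis, %). The members' medians were 0.08, -0.11 and 0.19, against 0.003, 0.0009 and -0.007 for all genes. In muscle the members' left tail holds the called decreases. Fewer than 1% of all genes lie beyond the range drawn.

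The muscle calls depended on how the near-identical libraries were counted. With muscle of summer 3, 5, 6 and 7 averaged into 1 sample, 0 members and 0 of all genes were called, with adjusted p of 0.204 for OAV3G000014369 and 0.182 for OAV3G000005607. Single libraries also moved the count: it was 2 without summer 3 or summer 6, 3 without summer 5, summer 7, winter 6 or winter 7, and 4 without winter 2. Without winter 4, whose season tag differs, it was 20. The count of all genes called moved in the same runs, so this was not particular to the members. It went from 1100 to 453 without summer 3 and to 447 without summer 6. It was 448, 430, 457, 644 and 472 without summer 5, summer 7, winter 6, winter 7 and winter 2. Without winter 4 it was 1490.

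In gills, 0 members were called, with 0% of 18409 genes called higher and 0% lower. Unadjusted p was under 0.05 for 5 members higher and 0 lower in summer, against 6.08% and 8.42% of all genes. DESeq2 called 1 member and limma voom called 0. The smallest edgeR adjusted p was 0.177, for OAV3G000000837. Its gill level was 1.55, 1.72 and 2.10 CPM in winter (lowest, median, highest) and 1.72, 2.15 and 5.26 CPM in summer, a difference of 0.89 ± 0.26 on the log2 scale. The lowest p among members lower in summer belonged to OAV3G000012720, at -0.72 ± 0.36, where gills of winter 4 held 22.0 CPM and every other gill library at most 6.84 CPM. Without that library its difference was -0.15.

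In skin, 0 members were called, with 0% of 18260 genes called in either direction. Unadjusted p was under 0.05 for 8 members higher and 1 lower in summer, against 9.21% and 2.09%. Neither DESeq2 nor limma voom called any member. OAV3G000010461 had the lowest p among those higher, at 0.81 ± 0.29, with 4.17, 8.61 and 11.0 CPM in winter and 8.42, 11.2 and 24.7 CPM in summer, the highest in summer 3. OAV3G000010637 had the lowest p among those lower, at -0.90 ± 0.39, with 54.5, 125 and 297 CPM in winter and 28.3, 82.1 and 151 CPM in summer. The groups overlapped for both. All 21 members of pattern 2 had a positive difference in skin and 25 of 28 of pattern 1 a negative one. Over all genes tested in skin, 50.1% were above 0. Members of a pattern were grouped because they vary together by fish, so these signs are not separate results. Skin is also the tissue where summer 3 and 4 stood apart.

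Because members vary by fish, season was also compared over fish, with 1 value per fish, the mean of log2(CPM + 0.5) over its tissues. With limma, 0 members were called, against 0.324% of 12642 genes higher and 0.506% lower. Unadjusted p was under 0.05 for 6 members higher and 3 lower, against 9.59% and 16% of all genes. The members' median difference was 0.147 on the log2 scale, against -0.06 for all genes, and 59 members were above 0, against 40.7% of all genes. Many members vary together by fish, so these signs are not separate results. The lowest p in each direction belonged to OAV3G000000837, at 0.78 ± 0.25 (limma adjusted p = 0.0976), and to OAV3G000018652, at -0.52 ± 0.19 (limma adjusted p = 0.124). Without summer 2, OAV3G000000837 passed, with a limma adjusted p of 0.0466.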

How the data were processed

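Poly-A RNA of gills, skin and muscle from 14 fish was, per the labels' protocols, sequenced as unstranded 150 bp pairs. For all 42 libraries, each used here, the authors deposited raw counts per gene. HISAT2 2.2.1, SAMtools 1.10, Trim Galore 0.6.6, Cufflinks and FastQC are listed in the submitters' processing notes. No genome build or counting program is given in the sources used here. Because strand was not kept, antisense and overlapping genes may share counts, and genes sharing reads with near copies are uncertain. Groups follow the sample titles.

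Members and tests were chosen with earlier results of these data known. CPM was scaled by TMM over all libraries, and the pseudocount was 0.5. Season within a tissue was tested on its 14 libraries with edgeR 4.0.16 (R 4.3.3, robust quasi-likelihood, TMM, filterByExpr), and over fish with limma 3.58.1 (trend, robust) on genes with at least 2 CPM in each tissue. Both tests were two-sided, as summer minus winter, with Benjamini-Hochberg adjustment over all genes and a threshold of 0.05. Their p-values set the difference between seasons only against the spread between these libraries or fish. Near-identical libraries count there as separate. DESeq2 1.42.0, limma voom and RLE scaling were among the alternatives. The selection and the tests were tested on simulated data.

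Named genes were the first 2 members by rank, the 2 genes on either side of the rank limit, the 2 widest ranges of fish values, the smallest p in each direction of a seasonal comparison, and the leading member of the 4 largest patterns. Of the genes called in muscle, 2 identifiers per direction are printed, OAV3G000002649 and OAV3G000006272 being among them as leading members. OAV3G000018652, named in the comparison over fish, was also called lower in muscle. Other identifiers (the fish high or low in all tissues and the members alike in summer) were named after their values were seen. The near-identity limit of 0.15 was set after seeing the data.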

Additional observations from a re-analysis of the deposited data

Results flagged for a closer look

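Dixon's test was applied to the 7 libraries of each group for 18 named members, 108 groups in all, of which chance alone flags about 1 in 20. It marked 17 groups, in 11 members, because the highest or the lowest library was far from the nearest of the others. The members were chosen for a wide spread shared by the tissues, and some were named for their range. The groups of a gene are therefore not separate tries, and the count cannot be set against 1 in 20. Distances were taken on the log2 scale with the pseudocount added, so they cannot be read directly from the values printed here, which are CPM. No cause was tested. In winter 1 OAV3G000002649 was lowest in gills at 0.219 (next 1.92) and in skin at 0.108 (next 2.88), and OAV3G000012667 was lowest in gills at 0.438 (next 6.48) and in skin at 0.0538 (next 7.84). OAV3G000020751 was lowest in muscle of winter 1 at 0 (next 7.85). Winter 1 was also highest in skin for OAV3G000011040 at 18.4 (next 5.67) and for OAV3G000011050 at 9.58 (next 4.93), and highest in muscle for OAV3G000010637 at 420 (next 174).

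In winter 4, OAV3G000012720 was highest in gills at 22.0 (next 6.84) and in skin at 27.4 (next 5.61), and OAV3G000020594 was highest in muscle at 64.8 (next 27.8). OAV3G000018000 was highest in skin of winter 3 at 16.9 (next 9.19). Muscle of summer 4, the shallowest library, was highest for OAV3G000002649 at 23.4 (next 10.4) and for OAV3G000010461 at 17.2 (next 10.5), and lowest for OAV3G000011613 at 773 (next 1059). Summer 2 was highest in gills for OAV3G000011040 at 19.7 (next 9.74) and lowest in muscle for OAV3G000020594 at 27.5 (next 37.3).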

How the results depend on the processing

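Of the 100 members, 91 were also chosen with RLE scaling, 72 with Spearman's rho, 84 without the limit on tissue means and 83 by the mean correlation. The list kept 63 with a pseudocount of 2, 63 with a minimum of 5 CPM, 55 with season not removed, 50 without the 4 fish with a differing season tag and 52 without summer 3 and 4. Among alternatives added after seeing the data, winter fish alone kept 26, summer fish alone 12, leaving out winter 6 and 7 kept 78, and leaving out summer 5, 6 and 7 kept 62. The median smallest r of the members, 0.469, was 0.659 over winter fish alone and -0.13 over summer fish alone. Leaving out 1 fish kept 60 (winter 1) to 90 members, 65 without summer 4, with a median smallest r of 0.374 (winter 1) to 0.496. The cause of these differences was not tested.

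Members called for season in muscle numbered 10, and 16 with DESeq2, 20 without the library whose tag differs, 0 with near-identical libraries averaged (fewer samples) and 2 to 20 leaving out 1 library. All genes called in muscle numbered 1100, and 2306, 1490, 0 and 430 to 1523 under the same settings. In gills DESeq2 called 1 member and 379 genes, and leaving out 1 library gave 0 to 135 genes (135 without summer 2). In skin, DESeq2 called 65 genes and leaving out summer 3 and 4 gave 2. Over fish, 105 genes were called, 67 with a minimum of 0.5 CPM, 0 without the fish with differing tags, and 0 to 594 leaving out 1 fish, among members 0 to 1. Individual numbers across seasons were taken to name different fish, since the seasons were separate collections. Correlations alone cannot show which libraries come from the same fish. With the same number, deviations correlated at -0.49 to 0.19 in gills, -0.40 to 0.38 in skin and -0.22 to 0.27 in muscle. A library was closest to its own number in 0, 0 and 2 of 7 pairs. With a replicate block on that number, 6 members and 722 genes were called in muscle and 14 genes over fish. Muscle of summer 4, with 69 counts for a typical member, limits the precision of low members there.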
